A study of Homo sapiens with 12 samples.

Results

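The circadian clock genes described here are the period genes PER1, PER2 and PER3, the cryptochromes CRY1 and CRY2, the REV-ERB receptors NR1D1 and NR1D2, the PAR bZIP factors DBP and TEF, and CIART. They were chosen by symbol as the negative arm and direct output arm of the molecular clock, 10 of the 28901 gene names in the deposited table. All 10 passed the filter on low counts and were tested in every comparison.

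The cells were ASC52telo hTERT, human adipose-derived stromal cells immortalized with telomerase, which were differentiated to adipocytes and harvested at day 14. Every group, controls included, carried a pLVX-shRNA2 lentivirus with ZsGreen, was sorted for ZsGreen-positive cells, and received insulin, dexamethasone, isobutylmethylxanthine, rosiglitazone, pantothenate and biotin during differentiation. All groups stayed in insulin and dexamethasone, a glucocorticoid, in the maintenance medium that followed. The 4 groups of 3 libraries were scramble shRNA (scramble control), scramble shRNA with lipopolysaccharide (LPS, a bacterial endotoxin) at 100 ng/mL for 4 h, shRNA against the long noncoding RNA linc-ADAIN (linc-ADAIN KD), and linc-ADAIN KD with the same LPS treatment. The cells are 1 immortalized line from 1 experiment. The labels do not say that the replicates were separate cultures, so p-values measure the spread between these libraries, which may be technical. The clock time of harvest is not given in the sources used here, and each group was sampled at 1 time, so phase and amplitude cannot be told apart from level. The level of linc-ADAIN was not analysed here, so the KD label was not checked at its target.

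In the mammalian clock, CLOCK or NPAS2 pairs with BMAL1 and activates genes through E-boxes, among them the period, cryptochrome, REV-ERB, DBP, TEF and CIART genes. PER and CRY proteins, and CIART, repress that same pair, which closes the main loop, while REV-ERB receptors repress BMAL1 through RRE elements that ROR receptors activate. PAR bZIP factors such as DBP and TEF activate D-box genes that NFIL3 represses. In adipose tissue the clock gates lipid metabolism and adipokine release, and glucocorticoids are a known resetting signal, with PER1 a classic direct target of the glucocorticoid receptor and of cAMP signalling.

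The promoters of the 5 genes with the largest called differences are shown so that their clock elements can be read beside their values. Each is the 250 bases before the transcription start in the RefSeq table for GRCh38.p14, in the direction of transcription, with E-box (CACGTG), E-prime-box (CACGTT), D-box (TTANGTAA) and RRE (TAGGTCA or TGGGTCA) matches in capitals on either strand. CIART is read at chr1:150282304-150282553 (plus strand), NR1D1 at chr17:40100590-40100839 (minus), PER2 at chr2:238288611-238288860 (minus), PER1 at chr17:8152405-8152654 (minus) and NR1D2 at chr3:23945871-23946120 (plus).
CIART: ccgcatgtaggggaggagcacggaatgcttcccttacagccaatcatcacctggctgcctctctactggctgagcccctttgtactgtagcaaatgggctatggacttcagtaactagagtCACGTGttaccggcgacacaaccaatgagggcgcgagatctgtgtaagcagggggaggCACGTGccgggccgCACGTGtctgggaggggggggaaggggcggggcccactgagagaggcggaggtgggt
NR1D1: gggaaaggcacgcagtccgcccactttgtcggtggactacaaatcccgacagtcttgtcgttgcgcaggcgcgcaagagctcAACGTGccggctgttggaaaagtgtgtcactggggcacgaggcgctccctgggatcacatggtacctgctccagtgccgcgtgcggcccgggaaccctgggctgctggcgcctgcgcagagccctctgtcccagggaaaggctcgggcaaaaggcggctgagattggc
PER2: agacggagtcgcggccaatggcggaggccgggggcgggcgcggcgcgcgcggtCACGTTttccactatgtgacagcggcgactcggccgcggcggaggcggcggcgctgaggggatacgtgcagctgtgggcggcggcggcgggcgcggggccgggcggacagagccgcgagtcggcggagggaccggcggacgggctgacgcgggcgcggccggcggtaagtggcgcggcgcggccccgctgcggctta
PER1: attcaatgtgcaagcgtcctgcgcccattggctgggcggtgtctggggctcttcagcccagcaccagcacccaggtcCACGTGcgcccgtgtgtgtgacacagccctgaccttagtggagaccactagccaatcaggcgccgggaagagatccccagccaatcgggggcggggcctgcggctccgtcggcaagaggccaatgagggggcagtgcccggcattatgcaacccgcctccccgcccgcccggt
NR1D2: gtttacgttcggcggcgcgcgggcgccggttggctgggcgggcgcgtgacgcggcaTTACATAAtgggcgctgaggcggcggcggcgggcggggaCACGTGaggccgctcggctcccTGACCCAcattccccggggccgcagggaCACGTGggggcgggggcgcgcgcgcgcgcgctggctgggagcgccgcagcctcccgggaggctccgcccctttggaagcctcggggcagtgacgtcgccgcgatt

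CIART held 3 E-boxes in this window, first bases 129, 71 and 57 before the start, and no other motif searched. The NR1D1 window held a single E-prime-box, on the opposite strand, and the PER1 window a single E-box 173 bases before its start. PER2 held an E-prime-box 197 bases before its start, and a D-box that straddled the start itself and is therefore not capitalised. The second NR1D2 start held 2 E-boxes, a D-box and an RRE, whereas the first NR1D2 start in the table, upstream of it, held none of these 4. The PER1 and PER2 starts used here lie inside the longer gene spans of GENCODE, since both genes have upstream starts in that annotation. Over 35116 RefSeq promoters, windows from 250 bases before to 50 after the start held an E-box in 7.26%, an E-prime-box in 5.34%, a D-box in 2.18%, TAGGTCA in 1.85% and TGGGTCA in 3.92%. Among the other clock genes, CRY1 held an E-prime-box, and the second CRY2 start an E-prime-box and an RRE (TAGGTCA). Both TEF starts held an E-box, and 1 PER3 start a D-box. The DBP window held none of the motifs searched. The glucocorticoid element core TGTTCT, found in 14.8% of all windows, and the full cAMP element TGACGTCA, in 1.85%, were in no window of the 10 genes, while the short cAMP element TGACG, in 24.6% of all windows, was in those of PER2, CRY1, CRY2 and NR1D2. These matches describe letters in short windows only.

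Counts on named genes totalled 28.4 to 53.8 M (1e6 counts) per library. Values are counts per 1e6 after TMM scaling (CPM), and a gene was called at an adjusted p under 0.05 by edgeR's quasi-likelihood F test, adjusted over all genes tested. The comparison of LPS with no LPS asks how the cells respond to endotoxin, and the KD difference asks what the shRNA against linc-ADAIN changes. The 6 genes NFKBIA, TNFAIP3, CXCL8, IL6, CCL2 and CCL20 that serve as a check of the LPS treatment all rose in both shRNA groups. Comparisons that share libraries are not independent: the scramble control without LPS enters both its LPS response and the KD difference.

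LPS changed 5 of the 10 clock genes in scramble control and 4 in KD, and PER3, CRY2, NR1D2, DBP and TEF were called in neither. PER1 rose, and PER2, NR1D1 and CIART fell, by at least 2-fold in scramble control. In scramble control 1 of the 10 genes rose and 4 fell, against 5.9% of all 15920 genes tested called higher and 8.38% called lower, and 4 of the 10 were also at least 2-fold apart, against 2.68% of all genes. In linc-ADAIN KD, 1 of 10 rose and 3 fell under LPS, against 5.32% called higher and 6.03% called lower, and 3 were at least 2-fold apart, against 2.25%. The median absolute log2 difference of the 10 genes was 0.52 in scramble control, against 0.26 over all genes, and 0.47 in KD, against 0.25.

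Without LPS, linc-ADAIN KD had PER1 and NR1D2 higher and PER2, CIART and CRY1 lower than scramble control, each in all 3 libraries against all 3. These were 2 of 10 genes higher, against 12.1% of all 16217 genes, and 3 of 10 lower, against 15.1%. The uncalled CRY2 (16.4 to 19.1 CPM in KD, 13.4 to 16.0 in scramble control) and TEF (4.38 to 5.68 and 5.69 to 6.23) did not overlap either. Separation of the libraries therefore did not mark out the called genes. None of the 10 was called at 2-fold or more in edgeR's test, against 7.77% of all genes, although 5 had an unadjusted p under 0.05 and DESeq2 also called 5. Under LPS, PER1 and NR1D2 were higher and TEF lower in KD, 2 of 10 against 12.7% and 1 of 10 against 14.2%, with none at 2-fold against 8.48%, 5 at an unadjusted p under 0.05 and 2 called by DESeq2. The number of calls under LPS depended on single libraries: it was 0 without Scramble + LPS replicate 3 and 1 without linc-ADAIN KD + LPS replicate 2. The median absolute log2 difference of the 10 genes was 0.63 without LPS and 0.49 with LPS, against 0.36 over all genes in both. On the library-size scale, which leaves out the TMM factors, the median of all genes in the KD comparisons sat at 0.13 without LPS and 0.11 with LPS rather than near 0.

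The adipocyte label was checked against its markers, and ADIPOQ (adiponectin) was at 919 CPM on average in scramble control and 241 in KD with LPS. Markers of cell state moved with KD beside the clock genes. To set their counts against, 12.1% of all genes were called higher and 15.1% lower in KD without LPS, and 12.7% and 14.2% with LPS. The summed level of 10 adipocyte markers was 3320 to 4560 CPM in scramble control and 3840 to 4460 with LPS, against 663 to 1970 in KD and 536 to 1250 in KD with LPS. Of these, 8 and 9 of 10 were called lower in KD without and with LPS and 0 higher, and LPL, a defining marker, was at under 1 CPM on average in every group. Of 10 stromal markers, 3 were higher and 4 lower in each KD comparison, their sum, mostly DCN, was 4970 to 6360 CPM in scramble and 6830 to 9060 in KD libraries, and DLK1 was at 0 in all libraries. The leukocyte markers summed to 58.2 to 72.2 CPM in scramble and 81.1 to 119 in KD libraries, mostly CD68 and CD163. These moved in opposite directions: CD163 averaged 4.33 CPM in scramble control and 68.6 in KD, and CD68 53.6 and 31.1. Of 5 leukocyte markers tested, 1 was called higher and 1 lower in KD without LPS. With LPS, 2 were called higher and 1 lower of 6 tested. AIF1 was at 0, and PTPRC and LYZ were under 1 CPM on average. Endothelial markers summed to 23.6 to 27.1 CPM in scramble control, 15.3 to 17.0 with LPS, 11.8 to 12.3 in KD and 8.45 to 13.2 in KD with LPS, and of 4 tested 2 were called lower in KD without LPS, and 3 lower and 1 higher with LPS. Proliferation markers summed to 33.9 to 57.0 CPM in scramble control, 41.8 to 86.2 with LPS, 56.3 to 77.8 in KD and 73.2 to 82.8 in KD with LPS. Of these 5 markers, 2 were called higher in KD without LPS. With LPS 0 were called in KD, and 1 had an unadjusted p under 0.05. The part of these differences in the KD differences of PER1, PER2, CRY1, NR1D2 and CIART was not tested. In bulk RNA, fewer cells of a type and less RNA per cell cannot be told apart.

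**Figure D1:**
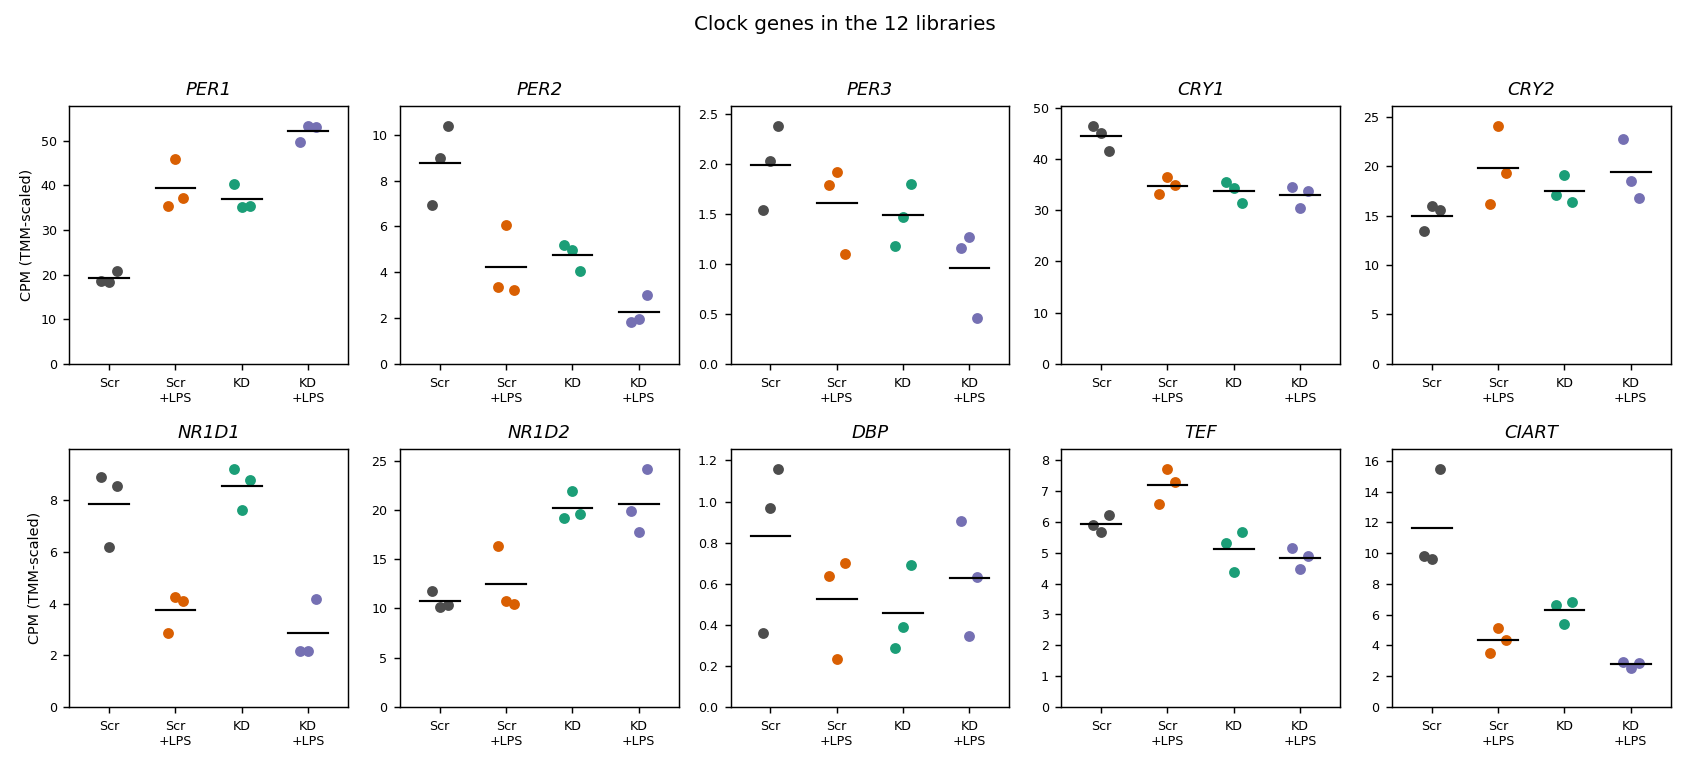
TMM-scaled CPM (vertical axis, starting at 0) of the 10 clock genes in each of the 12 libraries, by group, with a bar at the mean of 3 libraries; Scr is scramble shRNA and KD is linc-ADAIN shRNA. PER1 was 18.3 to 20.9 in scramble control and 49.8 to 53.4 in KD with LPS, while PER2 went from 6.93 to 10.4 down to 1.81 to 2.99 across the same groups.

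PER1 and PER2, paralogs that both repress CLOCK and BMAL1 in complex with cryptochromes, had differences of opposite sign in all 4 comparisons. PER1 (chromosome 17, 8140472 to 8156506, minus strand, GRCh38) was at 18.5, 18.3 and 20.9 CPM in scramble control, 35.4, 45.9 and 37.2 with LPS, 40.3, 35.2 and 35.4 in linc-ADAIN KD, and 49.8, 53.4 and 53.1 in KD with LPS. Scramble control was lowest and KD with LPS highest with no overlap, and the 2 groups between them, LPS alone and KD alone, overlapped. PER1 rose by 1.05 on the log2 scale with LPS in scramble control (standard error 0.11, adjusted p = 9.3e-05) and by 0.49 in KD (standard error 0.097, adjusted p = 0.0033). In KD against scramble control PER1 was higher by 0.94 without LPS (standard error 0.10, adjusted p = 3.3e-05) and by 0.40 with LPS (standard error 0.11, adjusted p = 0.014). The last of these calls was lost without Scramble + LPS replicate 1 (0.33, adjusted p = 0.052), Scramble + LPS replicate 3 (0.36, adjusted p = 0.070) or linc-ADAIN KD + LPS replicate 2 (0.37, adjusted p = 0.053), and the other 3 held without any 1 library. A same-strand protein-coding gene overlaps 5691 bases of the PER1 span in GENCODE, so counts of the pair could be split.

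PER2 (chromosome 2, 238244044 to 238290102, minus strand) was at 6.93, 8.98 and 10.4 CPM in scramble control and 3.37, 6.08 and 3.23 with LPS. In KD it was at 5.19, 4.99 and 4.07 CPM, and with LPS at 1.81, 1.98 and 2.99, between 64 and 92 counts. Scramble control was highest and KD with LPS lowest, and neither overlapped another group. PER2 fell by 1.05 on the log2 scale with LPS in scramble control (standard error 0.25, adjusted p = 0.017), by 1.08 with LPS in KD (standard error 0.29, adjusted p = 0.025), and was lower in KD without LPS by a log2 difference of -0.88 (standard error 0.20, adjusted p = 0.0057). With LPS the KD difference was -0.91 (standard error 0.34, 95% interval -1.63 to -0.18), which did not pass the test (adjusted p = 0.065), although every KD library lay below every scramble library. It passed without linc-ADAIN KD + LPS replicate 3 (-1.16, adjusted p = 0.041) and in the joint fit of all 12 libraries (-0.91, adjusted p = 0.021). The LPS calls of PER2 were lost without Scramble replicate 2 (-1.03, adjusted p = 0.067), Scramble replicate 3 (-0.91, adjusted p = 0.070) or Scramble + LPS replicate 3 (-0.89, adjusted p = 0.076), and in KD without replicate 1 or 2 of either group (adjusted p = 0.073 to 0.086).

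PER3 (chromosome 1, 7784291 to 7845177, plus strand), the third period paralog, was at 1.54 to 2.38 CPM in scramble control, 1.10 to 1.92 with LPS, 1.18 to 1.80 in KD and 0.457 to 1.27 in KD with LPS, from 13 to 111 counts per library. The groups overlapped in each of the 4 comparisons. Its 4 differences lay between -0.72 and -0.30 on the log2 scale, none passed the test, and their intervals reached from -1.82 to 0.50. PER3 overlaps UTS2 on the opposite strand over 2095 bases, and UTS2 had 0 counts in every library.

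The ratio of PER1 to PER2 counts within a library needs no scaling between libraries. It was 2.67, 2.04 and 2.01 in scramble control, 10.5, 7.55 and 11.5 with LPS, 7.77, 7.06 and 8.69 in linc-ADAIN KD, and 27.5, 27.0 and 17.8 in KD with LPS. LPS and KD each had a higher ratio than scramble control in every library, their own ranges overlapped, and KD with LPS lay above all other libraries. The ratio is given as a description and was not tested.

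**Figure D2:**
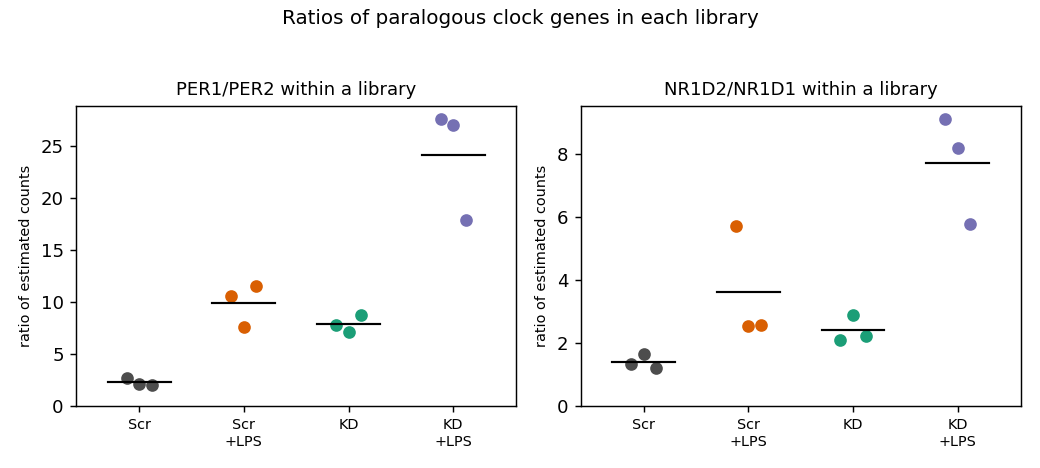
Ratio of estimated counts within each library (vertical axis, starting at 0) for PER1 over PER2 and NR1D2 over NR1D1, with 3 libraries per group and a bar at their mean; Scr is scramble shRNA and KD is linc-ADAIN shRNA. Both ratios were lowest in scramble control (2.01 to 2.67 and 1.21 to 1.63) and highest in KD with LPS (17.8 to 27.5 and 5.78 to 9.12).

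Of the cryptochromes, potent repressors of CLOCK and BMAL1, CRY1 was lower with KD without LPS and with LPS in scramble control, and CRY2 was called only in some of the other settings tried. CRY1 (chromosome 12, 106991364 to 107093549, minus strand) was at 46.5, 45.1 and 41.6 CPM in scramble control, 33.1, 36.4 and 34.9 with LPS, 35.5, 34.3 and 31.5 in KD, and 34.5, 30.5 and 33.8 in KD with LPS. Scramble control lay above every other library, and the other 3 groups overlapped one another. The CRY1 difference was -0.39 for KD without LPS (standard error 0.089, adjusted p = 0.0066) and -0.34 for LPS in scramble control (standard error 0.085, adjusted p = 0.021). The CRY1 call under LPS was lost without Scramble replicate 1 (-0.30, adjusted p = 0.093), Scramble replicate 2 (-0.32, adjusted p = 0.10), Scramble + LPS replicate 1 (-0.30, adjusted p = 0.058) or Scramble + LPS replicate 3 (-0.34, adjusted p = 0.069). With LPS the KD difference of CRY1 was -0.08 (95% interval -0.30 to 0.13), and in KD the LPS difference was -0.04 (95% interval -0.26 to 0.19).

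CRY2 (chromosome 11, 45847118 to 45883248, plus strand) was at 13.4, 16.0 and 15.6 CPM in scramble control, 16.2, 24.1 and 19.3 with LPS, 17.1, 19.1 and 16.4 in KD, and 22.8, 18.5 and 16.8 in KD with LPS. Scramble control again stood apart from the other 3 groups, here below them. The LPS difference in scramble control was 0.42 (95% interval 0.10 to 0.73, adjusted p = 0.082) and passed without Scramble + LPS replicate 1 (0.54, adjusted p = 0.023), with the replicate block (0.40, adjusted p = 0.014) and without the filter on low counts (0.41, adjusted p = 0.048). The KD difference of CRY2 was 0.23 without LPS (95% interval -0.03 to 0.50, adjusted p = 0.18) and -0.03 with LPS (95% interval -0.38 to 0.31).

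The REV-ERB receptors were called in different comparisons. NR1D1 fell with LPS and had no called difference with KD, whereas NR1D2 was higher in KD and had no called difference with LPS. NR1D1 (REV-ERB alpha, chromosome 17, 40092793 to 40100589, minus strand) was at 8.88, 6.18 and 8.55 CPM in scramble control, 2.86, 4.26 and 4.10 with LPS, 9.22, 7.63 and 8.79 in KD, and 2.18, 2.17 and 4.18 in KD with LPS. All 6 libraries with LPS lay below all 6 without it, and within each treatment the shRNA groups overlapped. NR1D1 fell by 1.06 on the log2 scale with LPS in scramble control (standard error 0.22, adjusted p = 0.0067) and by 1.60 in KD (standard error 0.27, adjusted p = 0.00096), and these calls held without any 1 library. The KD difference of NR1D1 was 0.12 without LPS (95% interval -0.27 to 0.51), -0.03 without Scramble replicate 2, and -0.40 with LPS (95% interval -1.12 to 0.31). The 3′ end of NR1D1 lies antisense to THRA over 1075 bases, and the strand setting of the counting is not stated. THRA, the thyroid hormone receptor alpha gene, had an LPS difference of -0.18 in scramble control (adjusted p = 0.23) and -0.39 in KD (adjusted p = 0.027). With LPS, THRA was at 26.8 to 31.8 CPM in KD and 32.9 to 38.4 in scramble control.

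NR1D2 (REV-ERB beta, chromosome 3, 23945286 to 23980617, plus strand) was at 11.8, 10.1 and 10.4 CPM in scramble control, 16.3, 10.8 and 10.5 with LPS, 19.2, 21.9 and 19.6 in KD, and 19.9, 17.8 and 24.2 in KD with LPS. Each of the 6 KD libraries exceeded each of the 6 scramble libraries. The KD difference was 0.91 without LPS (standard error 0.12, adjusted p = 0.00015) and 0.71 with LPS (standard error 0.18, adjusted p = 0.0097). The second NR1D2 call was lost without Scramble + LPS replicate 3 (0.60, adjusted p = 0.055), and the first held without any 1 library. The LPS difference of NR1D2 was 0.23 in scramble control (95% interval -0.15 to 0.62), where replicate 1 with LPS stood above the other 2 and the value without it was -0.01, and 0.03 in KD (95% interval -0.27 to 0.32). NR1D2 overlaps NKIRAS1 on the opposite strand over 1306 bases, and NKIRAS1 had no called difference. The ratio of NR1D2 to NR1D1 counts was 1.21 to 1.63 in scramble control, 2.53 to 5.71 with LPS, 2.08 to 2.87 in KD and 5.78 to 9.12 in KD with LPS.

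CIART, a repressor of CLOCK and BMAL1 whose own promoter held the 3 E-boxes shown above, fell with LPS in both shRNA groups and was lower in KD without LPS. CIART (chromosome 1, 150282543 to 150287093, plus strand) was at 9.80, 9.62 and 15.5 CPM in scramble control, 3.50, 5.15 and 4.34 with LPS, 6.63, 5.38 and 6.81 in KD, and 2.91, 2.52 and 2.85 in KD with LPS. The 4 groups did not overlap, in the order scramble control, KD, LPS and KD with LPS from high to low. CIART fell by 1.42 on the log2 scale with LPS in scramble control (standard error 0.22, adjusted p = 0.0012), the largest LPS difference of the 10 genes there, and by 1.18 in KD (standard error 0.23, adjusted p = 0.0032). The KD difference was -0.89 without LPS (standard error 0.20, adjusted p = 0.0066), and these 3 calls held without any 1 library. With LPS the KD difference of CIART was -0.65 (standard error 0.27, 95% interval -1.23 to -0.07), which did not pass the test (adjusted p = 0.094) but did in the joint fit of all 12 libraries (-0.65, adjusted p = 0.042).

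The PAR bZIP factors DBP and TEF, activators of D-box genes, gave 1 call over the 4 comparisons. TEF (chromosome 22, 41367333 to 41399326, plus strand) was at 5.89, 5.69 and 6.23 CPM in scramble control, 6.60, 7.73 and 7.31 with LPS, 5.33, 4.38 and 5.68 in KD, and 5.15, 4.47 and 4.89 in KD with LPS. LPS libraries of scramble control were highest and the 2 KD groups overlapped. TEF was lower in KD with LPS by a log2 difference of -0.58 (standard error 0.20, adjusted p = 0.044), a call lost without each library in turn except Scramble + LPS replicate 1, at adjusted p = 0.061 to 0.12, and in 4 of 7 other settings. Without LPS the KD difference of TEF was -0.21 (95% interval -0.61 to 0.19), and the LPS difference was 0.29 in scramble control (95% interval -0.05 to 0.64) and -0.08 in KD (95% interval -0.55 to 0.38).

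DBP (chromosome 19, 48630030 to 48637379, minus strand), often among the strongest rhythmic transcripts in tissues, was barely measured here. It held 7 to 54 counts per library, or 0.231 to 1.16 CPM, with every group overlapping every other. Its differences ran from -0.85 for KD without LPS (95% interval -2.28 to 0.57) to 0.45 for LPS in KD (95% interval -1.31 to 2.21), so no difference was detectable at this depth, and each of the 4 intervals reached past a 2-fold change in at least 1 direction. The DBP gene overlaps SPHK2 on the opposite strand over 688 bases. HLF, the third PAR bZIP factor, had 9 counts in 1 scramble library and 0 in the other 11, which allows up to 3 counts in each of those.

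**Figure D3:**
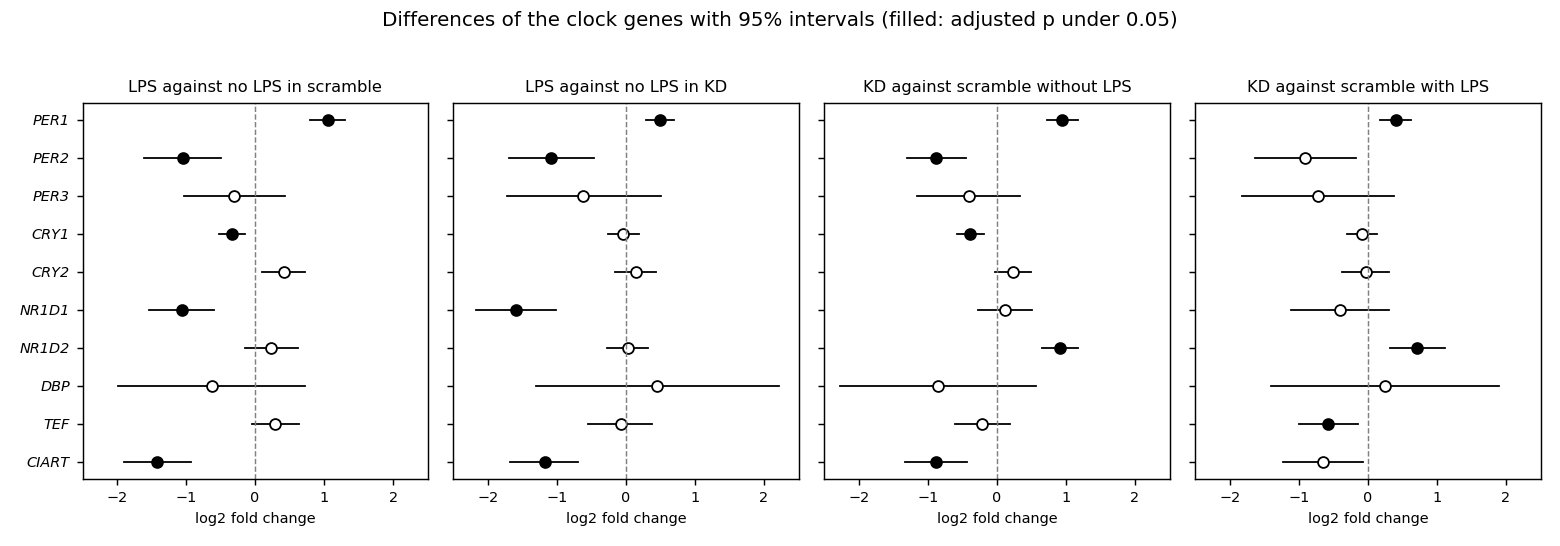
Log2 fold change (horizontal axis) of the 10 clock genes in the 4 comparisons, with points at the edgeR estimate, lines over the 95% interval, filled points for an adjusted p under 0.05, and a dashed line at 0. PER1 lies right of 0 in all 4 panels, PER2 and CIART lie left of 0 in all 4, NR1D1 is filled in the LPS panels and NR1D2 in the KD panels.

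The 2 perturbations were set against each other by the interaction of KD with LPS, fitted on all 12 libraries. edgeR called 0 of the 10 genes, against 0.943% of all 17173 genes called higher and 0.332% called lower, with 2 at an unadjusted p under 0.05 and 1 called by DESeq2. PER1 had the smallest p, an interaction of -0.54 (standard error 0.15, unadjusted p = 0.0021, adjusted p = 0.099), the sign of a smaller rise with LPS in KD, and it was called by DESeq2 (-0.55, adjusted p = 0.032) and by edgeR without the filter on low counts (-0.55, adjusted p = 0.043). The CRY1 interaction was 0.31 (unadjusted p = 0.025, adjusted p = 0.35), that of NR1D1 -0.52 (95% interval -1.29 to 0.24), and that of TEF -0.36 (95% interval -0.91 to 0.18). The interactions of PER2 (-0.02, 95% interval -0.82 to 0.77), CIART (0.24, 95% interval -0.42 to 0.90) and NR1D2 (-0.20, 95% interval -0.68 to 0.29) were within their errors. The differences of CRY1 and TEF that passed in only 1 arm were therefore not shown to differ between arms.

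Per kilobase of the MANE Select transcript, CRY1 was the most abundant of the 10 in scramble control at 14.9 ± 0.843 CPM per kb (SD, n = 3), followed by CIART at 5.78 ± 1.65, PER1 at 4.12 ± 0.309 and CRY2 at 3.63 ± 0.334. NR1D1 at 2.99, NR1D2 at 2.06, PER2 at 1.37, TEF at 1.35, DBP at 0.383 and PER3 at 0.312 CPM per kb followed, and the neighbours CRY2 and NR1D1, PER2 and TEF, and DBP and PER3 overlapped. The order changed between groups. In KD with LPS PER1 led at 11.1 ± 0.433 CPM per kb and overlapped CRY1 at 11 ± 0.717, CIART stood at 1.37 ± 0.106, and PER2, at 0.354 ± 0.0998, overlapped DBP at 0.289 ± 0.129.

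In the positive arm of the clock, NPAS2 was the 1 gene of 4 that edgeR called with LPS in each shRNA group. The share of all genes called higher was 5.9% in scramble control and 5.32% in KD. In each shRNA group 2 of the 4 had an unadjusted p under 0.05, and DESeq2 called 2 in scramble control and 1 in KD. CLOCK, NPAS2, BMAL1 and BMAL2 (listed as ARNTL and ARNTL2) gave 0 calls of 4 in edgeR's test for KD without and with LPS, with 1 and 0 at an unadjusted p under 0.05 and 0 called by DESeq2 in either. Over all genes, KD had 12.1% called higher and 15.1% lower without LPS, and 12.7% and 14.2% with LPS. With only 4 genes, 0 calls do not set this arm apart from those shares. NPAS2, a CLOCK paralog, rose with LPS by 0.57 on the log2 scale in scramble control (adjusted p = 0.00041) and by 0.45 in KD (adjusted p = 0.0066), from 44.2 to 47.6 CPM to 65.2 to 68.6 in scramble control. BMAL1 was at 26.2 to 29.9 CPM in scramble control and 21.0 to 25.2 with LPS, a difference of -0.31 (adjusted p = 0.069). In KD it was at 27.9 to 28.8 CPM and 20.1 to 25.3 with LPS, a difference of -0.34 (adjusted p = 0.078). The BMAL1 difference passed in 3 of 7 other settings in scramble control. In KD it passed in 1 of 7 other settings and in 1 of 6 fits without 1 library. CLOCK had LPS differences of -0.15 and -0.14, neither called. BMAL1 and CLOCK are named as the direct activators of the 10 genes, with their values already seen.

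Of the ROR receptors, which activate the RRE elements that REV-ERB receptors repress, RORA and RORB were higher in KD. RORA was at 24.5, 18.4 and 16.6 CPM in scramble control, 36.1, 51.3 and 35.1 in KD, 13.8, 10.8 and 12.2 with LPS, and 46.1, 37.4 and 46.1 in KD with LPS. No KD library overlapped a scramble library. The KD difference of RORA was 1.04 without LPS (adjusted p = 0.00066) and 1.81 with LPS (adjusted p = 2.2e-07), and RORA fell with LPS in scramble control (-0.68, adjusted p = 0.013), a call lost without Scramble replicate 1 (-0.50, adjusted p = 0.056) or Scramble + LPS replicate 3 (-0.68, adjusted p = 0.054). RORB had 0, 1 and 0 counts in scramble control and 0 in each scramble library with LPS, against 15, 50 and 22 counts in KD and 38, 32 and 37 in KD with LPS. It was called in both KD comparisons against scramble counts under the floor of 3 per library.

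NFIL3, the D-box repressor, rose with LPS by 0.83 in scramble control (adjusted p = 1.9e-05) and by 0.81 in KD (adjusted p = 0.00053). It was lower in KD by -0.47 without LPS (adjusted p = 0.015) and by -0.48 with LPS (adjusted p = 0.001). BHLHE40 (DEC1), a repressor that competes at E-boxes, was at 42.2, 42.8 and 49.4 CPM in scramble control and 16.1, 16.6 and 20.0 with LPS, against 56.0, 48.0 and 47.8 in KD and 38.4, 31.9 and 45.8 in KD with LPS. It fell with LPS in scramble control (-1.34, adjusted p = 1.2e-05), the LPS difference in KD was -0.39 (adjusted p = 0.068), and the interaction was called (0.96, adjusted p = 0.010). Its paralog BHLHE41 had no called difference.

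**Figure D4:**
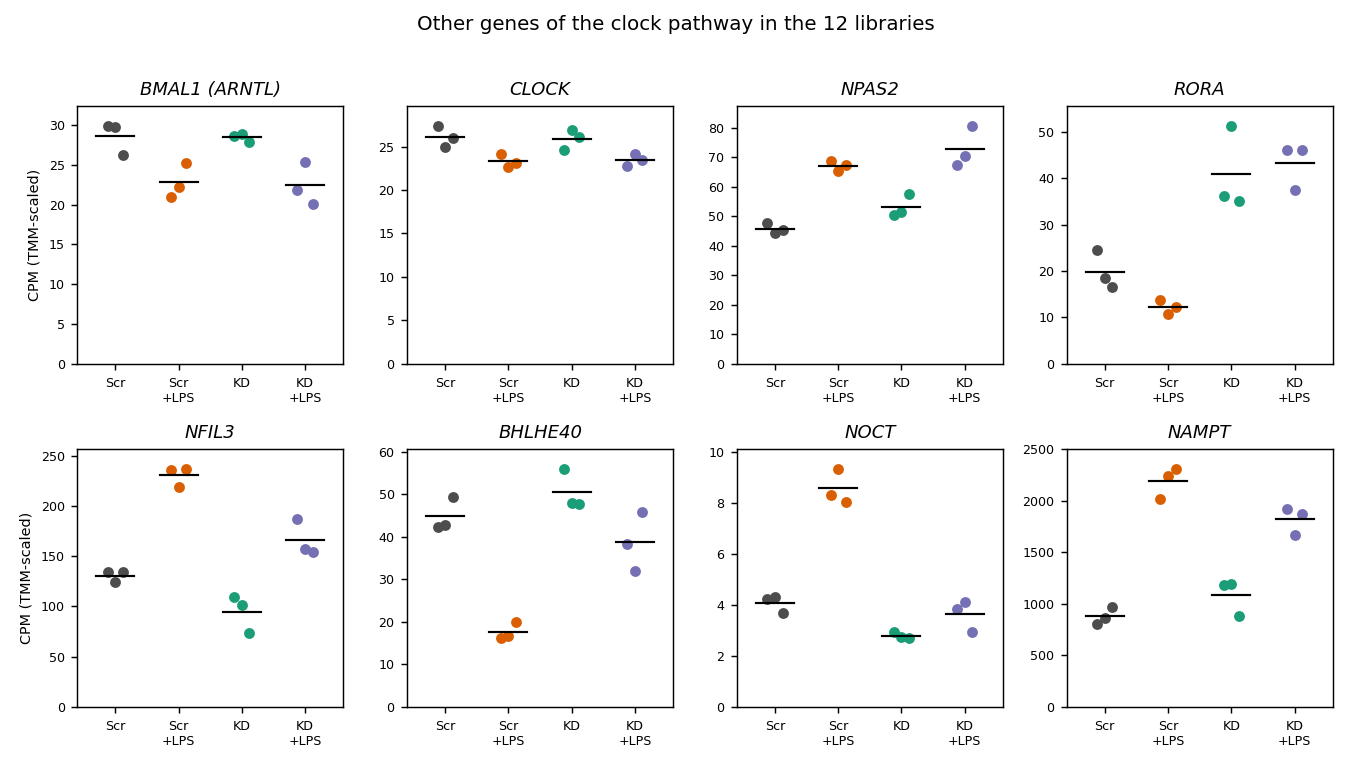
TMM-scaled CPM (vertical axis, starting at 0) of 8 other genes of the clock pathway in each of the 12 libraries, by group, with a bar at the mean of 3 libraries; Scr is scramble shRNA and KD is linc-ADAIN shRNA. BMAL1 was 26.2 to 29.9 in scramble control and 21.0 to 25.2 with LPS, and CLOCK 24.9 to 27.4 and 22.7 to 24.1. RORA is higher in all KD libraries, and BHLHE40 is lowest in scramble control with LPS at 16.1 to 20.0.

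Kinases, ubiquitin ligases and other modifiers of PER and CRY proteins changed by less than 2-fold where they changed. Of 9 reported, 2 were called lower in KD without LPS, against 15.1% of all genes, and 2 higher and 1 lower with LPS, against 12.7% and 14.2%. HUWE1, a ubiquitin ligase, was lower in both (-0.28 and -0.32), and GSK3B, a kinase of several clock proteins, without LPS (-0.39, adjusted p = 0.0026). With LPS, 2 were called lower in scramble control, CSNK1E (-0.50, adjusted p = 0.002) and CIPC (-0.44, adjusted p = 0.048), against 8.38% of all genes. In KD 1 was called lower with LPS, CIPC (-0.63, adjusted p = 0.048), against 6.03% of all genes. CSNK1E encodes a kinase that marks PER proteins for degradation and CIPC a CLOCK-interacting repressor. Both calls of CIPC were lost in 5 of the 6 fits without 1 library (adjusted p = 0.06 to 0.17). They held only without Scramble + LPS replicate 1 in scramble control and without linc-ADAIN KD replicate 1 in KD.

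Among 5 genes known as clock outputs, 1 was higher in KD without LPS, against 12.1% of all genes, and 1 was higher and 3 lower with LPS, against 12.7% and 14.2%. WEE1, a cell cycle kinase with E-boxes in its promoter, was higher in KD (1.30 and 1.53 without and with LPS). The 3 lower in KD with LPS were NOCT (-1.24, adjusted p = 0.00059), NAMPT (-0.27, adjusted p = 0.016) and USP2, a rhythmic deubiquitinase gene (-1.63, adjusted p = 0.048). The USP2 call was lost without each library in turn except Scramble + LPS replicate 1 (adjusted p = 0.077 to 0.26), and that of NAMPT without Scramble + LPS replicate 3 or linc-ADAIN KD + LPS replicate 2 (adjusted p = 0.074 in both). NAMPT, the rate-limiting enzyme of NAD salvage, rose with LPS (1.33 and 0.75 in scramble control and KD), and NOCT, a rhythmic phosphatase, rose with LPS in scramble control (1.08, adjusted p = 0.001) with a difference of 0.38 in KD (adjusted p = 0.46).

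Genes of the signals that can reset the clock were also read. Of 6 glucocorticoid-induced genes, 2 were higher and 1 lower in KD without LPS, against 12.1% and 15.1% of all genes, and 2 higher and 2 lower with LPS, against 12.7% and 14.2%. TSC22D3 (GILZ) was higher in KD (1.78 and 1.56) and rose with LPS (1.07 and 0.84). SGK1 was higher in KD (1.54 and 2.27) and fell with LPS in scramble control (-0.46, adjusted p = 0.0065), with a difference of 0.26 in KD (adjusted p = 0.055), while FKBP5 was lower in KD (-0.63 and -1.08). KLF9 rose with LPS (0.89 and 0.72) and was lower in KD with LPS (-0.34, adjusted p = 0.0097). That lower call was lost in 1 of 6 fits without 1 library (adjusted p = 0.055). Under LPS, 2 of the 6 glucocorticoid-induced genes rose and 1 fell in scramble control, against 5.9% and 8.38% of all genes. In KD 2 rose and 0 fell with LPS, against 5.32% and 6.03%. Of 6 cAMP-responsive genes, 5 were higher in KD both without and with LPS, against 12.1% and 12.7% of all genes, among them CREM (1.22 and 0.67) and NR4A2 (0.92 and 0.99). With LPS, 4 rose in scramble control and 2 in KD, against 5.9% and 5.32%. The part of these signals in the levels of PER1 was not tested.

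Across the 12 libraries, a description in which the points share groups and library preparation, the log2 CPM of PER2 correlated with that of CIART at r = 0.93 and NR1D1 with CIART at 0.83. PER1 and PER2 correlated at -0.81 over all libraries, but at 0.78 after the group means were removed, so the opposite movement lay between groups and not between libraries of a group. Among 11730 genes outside the lists with a mean of at least 50 counts, the gene most like each of the 10 over the 12 libraries was CD82 for PER1 (r = 0.975), BAG3 for PER2 (0.965), NAA16 for PER3 (0.906), TMEM183A for CRY1 (0.960), GHDC for CRY2 (0.870), MNT for NR1D1 (0.938), RAVER2 for NR1D2 (0.972), POMZP3 for DBP (0.844), BEST1 for TEF (0.960) and VEGFA for CIART (0.981).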

How the data were processed

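Polyadenylated RNA was sequenced from the 12 libraries. Per the submitters' processing notes, reads were demultiplexed with bcl2fastq 2.19 and pseudoaligned to GRCh38 transcripts with kallisto 0.44.0, and DESeq2 1.32.0 was used by the authors. The authors deposited estimated counts (expected counts), whole numbers per gene name, with no normalization for library size or length. The annotation release and the strand setting are not given in the sources used here. A row with no gene name (0.235% to 0.306% of a library) was left out, and 0 columns were unmapped.

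In R 4.3.3, counts were rounded, genes with at least 10 counts in the libraries compared entered the test, and edgeR 4.0.16 tested them by its quasi-likelihood F test with TMM scaling and Benjamini-Hochberg adjustment. Each comparison used its 6 libraries, and the interaction all 12. The standard error is the absolute log2 fold change over the square root of F. The groups were taken from the sample labels. Total counts of 28.4 to 53.8 M (1e6) per library set the precision, and intervals come from the spread between libraries.

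In simulated data with 200 changed genes, edgeR recovered 99% for KD without LPS (16337 genes), 98.5% for KD with LPS (16016), 97.5% for LPS in scramble (16301), 99% for LPS in KD (16034) and 83.5% for the interaction (17194). DESeq2 1.42.0, other scalings and filters, a joint fit of all groups, a block for replicate number and leaving out each library were the alternatives. Positions and lengths come from GENCODE release 44 on GRCh38, and promoters from the RefSeq table for GRCh38.p14, which held all 10 genes. A few listed pathway genes are not reported here. Named beside the 10 genes were listed pathway genes, those passing the test in any comparison, and the gene most like each. The members and lists were chosen with earlier results of these data known, and overlapping genes were added after the data were seen.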

Additional observations from a re-analysis of the deposited data

Results flagged for a closer look

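In the pathway lists, 3 genes responded to LPS differently in the shRNA groups by a test of the difference itself, the interaction of linc-ADAIN KD with LPS in edgeR's fit on 12 libraries. They were 1 of 3 D-box and E-box regulators tested, 1 of 6 glucocorticoid-induced genes and 1 of 6 cAMP-responsive genes, and the other pathway lists had 0 called. Over all 17173 genes, 0.943% were called higher and 0.332% lower. BHLHE40, an E-box repressor, had an interaction of 0.96 on the log2 scale (adjusted p = 0.010), with an LPS difference of -1.34 in scramble control and -0.39 in KD. SGK1, a glucocorticoid-induced kinase gene, had an interaction of 0.73 (adjusted p = 0.0070), with LPS differences of -0.46 and 0.26. NR4A1, a cAMP-responsive receptor gene, had an interaction of -0.98 (adjusted p = 0.010), with LPS differences of 1.28 and 0.29. None of the 10 clock genes was called in this test by edgeR, with 2 at an unadjusted p under 0.05 and 1, PER1, called by DESeq2.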

How the results depend on the processing

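Of 50 differences of the 10 clock genes (5 comparisons each), 29 kept their direction and side of the threshold in every setting tried, 6 lost the call, 4 gained it and 11 changed sign somewhere. The number of clock genes called was 5 in KD without LPS in every setting. In KD with LPS (3) it was 5 in the fit on all 12 libraries and 0 to 3 with a library left out, 0 without Scramble + LPS replicate 3 and 1 without linc-ADAIN KD + LPS replicate 2. For LPS in scramble control (5) it was 6 without the filter and with the replicate block, CRY2 being called there, and 3 to 5 with a library left out, with 3 without Scramble replicate 2 or Scramble + LPS replicate 3, and for the interaction (0) it was 1 without the filter and 1 with DESeq2. With library size only, the sign changed for CRY1 (0) and CRY2 (0.05) in KD with LPS and for NR1D2 under LPS in KD (-0.03). Values with a library left out crossed 0 for NR1D1 in KD without LPS (-0.03 to 0.22), CRY2 (-0.17 to 0.12) and DBP (-0.12 to 0.54) in KD with LPS, NR1D2 under LPS in scramble control (-0.01 to 0.35), CRY1 (-0.09 to 0.02) and NR1D2 (-0.11 to 0.13) under LPS in KD, and the interactions of PER2 (-0.26 to 0.33), PER3 (-0.55 to 0.02), NR1D2 (-0.33 to 0.04) and CIART (-0.02 to 0.38). The cause was not tested. Over all genes, calls for LPS in scramble control were 2274, but 1187 without Scramble replicate 2 and 1461 without Scramble + LPS replicate 3, and interaction calls were 219, but 431 without the filter, 475 with DESeq2 and as few as 92 without Scramble replicate 2.

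A pairing of the samples by replicate number was not established. Same-numbered deviations correlated at -0.10 to 0.246, with 4 of 12 pairs over 0.1. In KD without LPS, KD with LPS, LPS in scramble control and LPS in KD, 0, 3, 3 and 4 of 6 samples correlated best with their own number. With 3 libraries per group this check cannot exclude a pairing. With the replicate block the clock genes called were 5, 2, 6, 4 and 0, in the order KD without LPS, KD with LPS, LPS in scramble control, LPS in KD and interaction. Counts were lowest for DBP (7 to 54 per library) and PER3 (13 to 111), which limits what could be detected for both.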
